A study of Rattus norvegicus with 15 samples.

Results

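The genes described here are Ubash3b, Ssh2, Asap1, Akap13, Rapgef2, Alms1, Wdr7, Ankrd54, Dlat and Gda, 10 of the 21576 genes in a table of rat liver RNA-seq read counts. They were proposed as the genes with the lowest unadjusted p in livers of rats given Zexie Decoction (ZXD) against livers of rats on the same lipid-raising feed without it (HFD). No gene passed the adjustment for multiple testing in that comparison, so the 10 are candidates chosen by rank. Their ZXD over HFD differences are therefore given as a description, with no test. All 10 passed the filter on low counts that left 13163 genes for testing.

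Zexie Decoction is a herbal decoction of traditional Chinese medicine, and the series examined it in rats made hyperlipidemic by feeding. All rats were male Sprague-Dawley animals, with 10 rats per group and no age in the labels. CON animals were kept on normal chow. The feed of the HFD group was 66% base forage with 16.7% sucrose, 2% cholesterol, 7% lard and 8.3% yolk, to which 0.2% propylthiouracil, a blocker of thyroid hormone synthesis, and the bile salt sodium cholate at 0.3% were added. After 4 weeks they received saline for 4 more weeks. ZXD rats ate the same feed and took the decoction by mouth at 2.2 g/kg per day over the last 4 weeks. HFD and ZXD livers therefore share every component of the feed, propylthiouracil included, and the components cannot be told apart. Each group has 5 libraries, and the labels do not say which rat a library came from. The labels also speak of simvastatin-treated rats, not analysed here.

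Several of the 10 genes encode signalling proteins, some of them acting on small GTPases or on actin. Small GTPases switch between an inactive GDP-bound and an active GTP-bound form: exchange factors load GTP, and GTPase-activating proteins (GAPs) speed its hydrolysis. Akap13 and Rapgef2 encode exchange factors, Asap1 encodes a GAP, and Ssh2 and Ubash3b encode phosphatases that act on cofilin and on tyrosine kinase signalling. Alms1, Wdr7 and Ankrd54 encode a centrosomal protein, a partner of the vacuolar proton pump and an ankyrin repeat protein. Dlat and Gda encode metabolic enzymes, 1 in the pyruvate dehydrogenase complex and 1 in guanine breakdown, both part of ordinary liver metabolism.

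Levels are given as CPM, the read count relative to a library size that carries TMM scaling factors, and differences as log2 fold changes with their SE from 1 edgeR quasi-likelihood fit over all 15 libraries. Of the 10 genes, 9 had higher mean CPM in ZXD than in HFD, and Ankrd54 had lower. In 8 of them all 5 ZXD libraries lay above all 5 HFD libraries, and in Ankrd54 all 5 lay below. Gda was the exception, through the first HFD library. Of all genes tested, 3.68% did not overlap between ZXD and HFD (2.14% higher, 1.53% lower), and because this contrast chose the members nothing is read from the difference. The members' median log2 fold change was 0.70 for ZXD over HFD, -0.43 for HFD over CON and 0.30 for ZXD over CON, beside 0.02, 0.02 and 0.03 over all genes tested. These 3 comparisons share libraries with one another, so the last 2 are not independent of the choice either.

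Against CON, 4 members fell in HFD (Ssh2, Akap13, Alms1 and Wdr7) and 0 rose, at an edgeR adjusted p under 0.05. Of all genes tested, 21.0% were called in that comparison (10.0% higher, 10.9% lower). In ZXD against CON, 3 members rose (Ubash3b, Asap1 and Rapgef2) and 1 fell (Ankrd54), where 32.7% of all genes were called (17.9% higher, 14.8% lower). The 4 members that fell in HFD had log2 fold changes of 0.06 to 0.30 in ZXD over CON, and none of these passed the test. A missed threshold does not show that their ZXD and CON levels were alike.

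**Figure D1:**
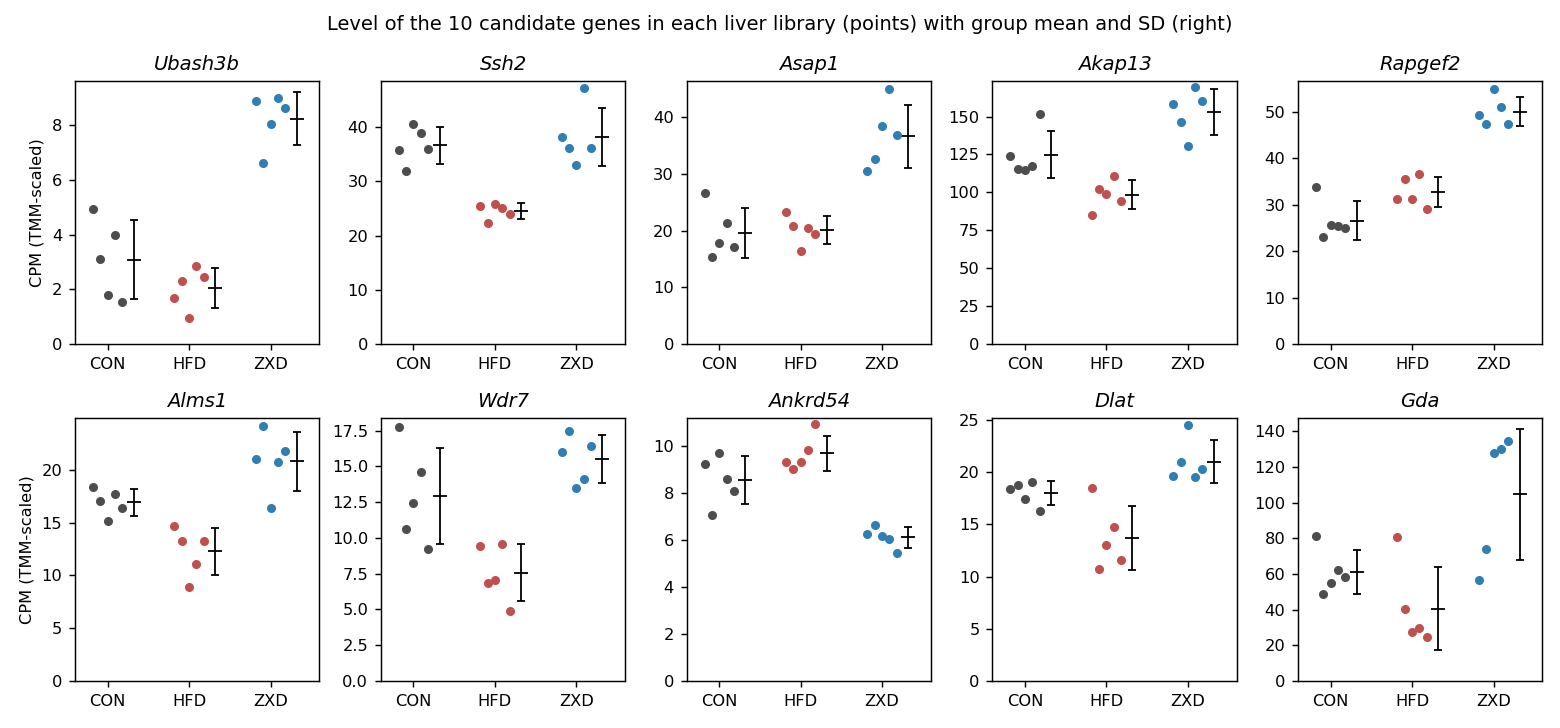
Level of each of the 10 genes in CPM (vertical axis, from 0) in the 5 CON, 5 HFD and 5 ZXD liver libraries (points), with the group mean and SD to the right of each group. ZXD libraries stand above HFD libraries in 8 panels and below them in the Ankrd54 panel, and the Gda panel shows the HFD library at 80.7 CPM within the ZXD spread.

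The choice of members was checked against the fit. Of the 10 genes with the lowest p in ZXD over HFD, 8 are members: Ubash3b at place 1, Ssh2 at 2, Asap1 at 4, Akap13 at 5, Rapgef2 at 6, Alms1 at 7, Ankrd54 at 9 and Wdr7 at 10. Prelp, a matrix proteoglycan gene, stood at place 3 and LOC103693914, a provisional gene, at place 8. Dlat stood at place 39 and Gda at 73, with 63 genes that are not members up to that place, so for these 2 the description as lowest p does not hold. Unadjusted p ran from 2.11e-05 in Ubash3b to 0.000801 in Gda, and the edgeR adjusted p from 0.110 to 0.139. Just past Gda stood Ncapd3 at 0.000816, Dlc1_1 at 0.000817 and Zfp366 at 0.000834. The edgeR test called 0 genes at an adjusted p under 0.05 and had 2167 genes (16.5%) at an unadjusted p under 0.05. DESeq2 called 342 genes, all 10 members among them, and limma voom called 0. The same counts and contrast chose the members, so the DESeq2 calls are no separate support for them.

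Library totals ran from 12552449 to 14228052 counts, and 3 counts corresponded to 0.183 to 0.285 CPM. TMM factors were 0.793 to 0.867 in CON and 1.01 to 1.28 in HFD and ZXD. On library totals alone, without these factors, the median gene moved from 0.02 to 0.44 in HFD over CON and from 0.03 to 0.46 in ZXD over CON, so differences from CON depend on the scaling. In ZXD over HFD the median moved from 0.02 to 0.03. The tissue label was checked by 14 hepatocyte markers such as albumin, which had sums between 195936 and 237679 CPM in CON, 94443 and 125108 in HFD, and 66948 and 137319 in ZXD.

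Ubash3b encodes Sts-1, a phosphatase that damps signalling from tyrosine kinase receptors and is best known from blood cells. In the table it lies on the minus strand at chr8:40986547-41129756, with a gene length of 2585 bases. The build behind the table's positions is not given in the sources used here, and chromosome numbers were assigned from the RefSeq chromosome of the genes that share each sequence name. Ubash3b measured 4.93, 3.12, 1.81, 3.99 and 1.53 CPM in CON libraries 1 to 5, 1.68, 2.30, 0.960, 2.86 and 2.44 CPM in HFD, and 8.88, 6.63, 8.04, 8.97 and 8.62 CPM in ZXD. All 5 ZXD libraries stood above every CON and HFD library, while CON and HFD overlapped. The read counts behind these values ran from 13 in HFD library 3 to 147 in ZXD library 4, the thinnest counting of the 10 genes.

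Ubash3b means were 3.08 ± 1.44 CPM in CON, 2.05 ± 0.742 in HFD and 8.23 ± 0.966 in ZXD (SD, n = 5 each). Its ZXD over HFD log2 fold change was 2.00 ± 0.33 (SE), the largest in size among the 10. It rose in ZXD over CON by 1.42 ± 0.33 (edgeR adjusted p = 0.00569), with 5 of 5 ZXD libraries above the CON range. In HFD over CON it read -0.58 ± 0.33 (edgeR adjusted p = 0.215).

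Its promoter is shown beside that of Ssh2, the pair at the head of the order of p, because both are rich in GC boxes. The windows run from 250 bases before to 50 bases after the RefSeq start in the assembly GRCr8, at chr8:50428972-50429271 on the minus strand and chr10:62695520-62695819 on the plus strand. Capitals mark GGGCGG or its reverse complement CCGCCC.
Ubash3b: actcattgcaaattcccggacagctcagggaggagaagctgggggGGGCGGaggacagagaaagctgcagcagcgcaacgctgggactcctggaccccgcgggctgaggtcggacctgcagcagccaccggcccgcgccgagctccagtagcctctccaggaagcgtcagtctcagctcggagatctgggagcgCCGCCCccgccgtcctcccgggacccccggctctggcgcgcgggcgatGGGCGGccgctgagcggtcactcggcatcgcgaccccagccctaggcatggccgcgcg
Ssh2: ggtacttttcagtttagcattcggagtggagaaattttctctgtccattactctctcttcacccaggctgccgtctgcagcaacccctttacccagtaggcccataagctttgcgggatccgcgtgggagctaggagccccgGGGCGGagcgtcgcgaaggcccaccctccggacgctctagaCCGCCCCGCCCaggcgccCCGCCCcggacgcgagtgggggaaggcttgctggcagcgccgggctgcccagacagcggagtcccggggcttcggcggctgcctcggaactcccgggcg
GGGCGG was found on either strand in 7 of the 9 members with a promoter entry, all but Rapgef2 and Wdr7, and in 33.1% of 33469 rat promoters of the same length. The Ubash3b window held 3 matches, a number that 8.97% of all promoters reach, and the Ssh2 window held 4, which 4.64% reach. Among the 9 members GC content ran from 42.3% in Rapgef2 to 71.7% in Ubash3b, beside 51.7% in the median promoter. The 33469 promoters were not limited to genes passing the filter on low counts, as the members were. Shares of promoters, here and below, are therefore not like for like. The windows printed were also picked partly for their many matches, so the shares given for them are no measure of rarity. These are letter matches, not measured binding sites.

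Ssh2 encodes a slingshot phosphatase, which removes the inhibitory phosphate from cofilin and so frees it to sever actin filaments. It lies on the plus strand at chr10:61203749-61310006 in the table, with a length of 6343 bases. Ssh2 measured 35.8, 31.8, 40.6, 38.8 and 35.9 CPM in CON libraries 1 to 5, 25.5, 22.3, 25.8, 25.1 and 23.9 CPM in HFD, and 38.2, 36.0, 33.0, 47.2 and 36.2 CPM in ZXD. The HFD libraries lay below every CON and ZXD library, and CON and ZXD overlapped. The means were 36.6 ± 3.34, 24.5 ± 1.43 and 38.1 ± 5.40 CPM (SD, n = 5).

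In HFD over CON, Ssh2 fell, with a log2 fold change of -0.58 ± 0.11 (edgeR adjusted p = 0.00220), and this call was kept when each of the 15 libraries was left out in turn. On library totals it was not called (adjusted p = 0.353). ZXD over HFD read 0.63 ± 0.11 and ZXD over CON 0.06 ± 0.11 (edgeR adjusted p = 0.702), with 4 of 5 ZXD libraries inside the CON range and 1 above it.

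Asap1 encodes an ARF GAP found at focal adhesions and podosomes. The table places it on the minus strand at chr7:92385527-92648016, with a length of 3321 bases. Asap1 measured 26.6, 15.4, 17.8, 21.3 and 17.0 CPM in CON libraries 1 to 5, 23.3, 20.9, 16.5, 20.4 and 19.3 CPM in HFD, and 30.6, 32.6, 38.4, 44.9 and 36.8 CPM in ZXD. CON and HFD overlapped throughout, with every HFD library inside the CON range, and all ZXD libraries stood above both. Mean levels were 19.6 ± 4.43, 20.1 ± 2.49 and 36.6 ± 5.57 CPM (SD, n = 5). Asap1 rose in ZXD over CON by 0.90 ± 0.15 (edgeR adjusted p = 0.00117). HFD over CON was 0.03 ± 0.15 (edgeR adjusted p = 0.889), and ZXD over HFD was 0.87 ± 0.15.

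Akap13, also called AKAP-Lbc, encodes a large protein that both activates RhoA and anchors protein kinase A. It lies on the plus strand at chr1:121422303-121727463 and is the longest of the 10 by transcript, at 12224 bases. Akap13 measured 124, 116, 115, 117 and 152 CPM in CON libraries 1 to 5, 85.1, 103, 98.9, 111 and 94.3 CPM in HFD, and 158, 146, 130.3, 169 and 161 CPM in ZXD. HFD lay below CON and ZXD in every library, and CON library 5 stood within the ZXD spread. The group means were 125 ± 15.5, 98.3 ± 9.55 and 153 ± 15.1 CPM (SD, n = 5).

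Akap13 fell in HFD over CON, with a log2 fold change of -0.34 ± 0.11 (edgeR adjusted p = 0.0440). This call was kept in only 3 of the 15 fits that leave out 1 library, those without HFD 4, ZXD 3 or ZXD 4, and on library totals its direction turned, to 0.0709 (adjusted p = 0.675). ZXD over CON was 0.29 ± 0.11 (edgeR adjusted p = 0.0568), with 3 of 5 ZXD libraries above the CON range, and ZXD over HFD was 0.64 ± 0.11.

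Rapgef2 encodes an exchange factor that activates the GTPase RAP1, which acts on cell adhesion and junctions. It lies on the minus strand at chr2:158305258-158419241, with a length of 6311 bases. Rapgef2 measured 33.8, 23.1, 25.7, 25.4 and 24.95 CPM in CON libraries 1 to 5, 31.3, 35.6, 31.3, 36.5 and 29.0 CPM in HFD, and 49.3, 47.5, 55.0, 51.0 and 47.4 CPM in ZXD. ZXD stood above every other library, and CON and HFD overlapped only through CON library 1. Means were 26.6 ± 4.17, 32.7 ± 3.19 and 50.05 ± 3.15 CPM (SD, n = 5).

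Rapgef2 rose in ZXD over CON by 0.91 ± 0.11 (edgeR adjusted p = 8.95e-05), the smallest adjusted p of any member in either comparison with CON. HFD over CON was 0.30 ± 0.11 (edgeR adjusted p = 0.0634), and without CON library 1 it was called at 0.40 (adjusted p = 0.0110). ZXD over HFD was 0.61 ± 0.11.

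Alms1 encodes a large protein of the centrosome and the base of the cilium, and its loss in humans causes Alström syndrome, a disorder with obesity and insulin resistance. It lies on the plus strand at chr4:107106971-107206695, with a length of 9965 bases. Alms1 measured 18.4, 17.0, 15.1, 17.7 and 16.4 CPM in CON libraries 1 to 5, 14.7, 13.3, 8.94, 11.1 and 13.3 CPM in HFD, and 21.1, 24.2, 16.4, 20.7 and 21.7 CPM in ZXD. HFD lay below all CON and ZXD libraries, and 4 of 5 ZXD libraries lay above the CON range, with ZXD library 3 inside it. Averages were 16.9 ± 1.27, 12.3 ± 2.26 and 20.8 ± 2.80 CPM (SD, n = 5).

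Alms1 fell in HFD over CON, at -0.46 ± 0.14 (edgeR adjusted p = 0.0311). The call was lost in 6 of the 15 fits that leave out 1 library, those without CON 1, CON 2, CON 4, CON 5, HFD 3 or HFD 4, with adjusted p up to 0.0788. On library totals it read -0.04 (adjusted p = 0.839). ZXD over CON was 0.30 ± 0.14 (edgeR adjusted p = 0.113) and ZXD over HFD 0.76 ± 0.14.

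Wdr7 encodes a subunit of rabconnectin-3, which helps assemble the vacuolar proton pump that acidifies endosomes and lysosomes. It lies on the plus strand at chr18:55319130-55585646, with a length of 4467 bases. Wdr7 measured 17.8, 10.6, 12.4, 14.6 and 9.20 CPM in CON libraries 1 to 5, 9.45, 6.84, 7.09, 9.61 and 4.88 CPM in HFD, and 16.0, 17.5, 13.5, 14.2 and 16.5 CPM in ZXD. Every ZXD library lay inside the CON range and above the HFD range, and HFD overlapped CON in 2 libraries. Means were 12.9 ± 3.38, 7.58 ± 1.98 and 15.5 ± 1.65 CPM (SD, n = 5).

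Wdr7 fell in HFD over CON, at -0.77 ± 0.20 (edgeR adjusted p = 0.0168), a call kept in all 15 fits that leave out 1 library and lost on library totals (adjusted p = 0.154). ZXD over HFD was 1.03 ± 0.20. ZXD over CON was 0.26 ± 0.20 (edgeR adjusted p = 0.333).

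Ankrd54 encodes an ankyrin repeat protein and was the only member with less RNA in ZXD. It lies on the minus strand at chr7:106951054-106961977 and has the shortest span of the 10, 10924 bases, with a length of 1904 bases. Ankrd54 measured 9.24, 7.05, 9.69, 8.60 and 8.09 CPM in CON libraries 1 to 5, 9.32, 9.004, 9.31, 9.82 and 10.9 CPM in HFD, and 6.26, 6.63, 6.15, 6.04 and 5.44 CPM in ZXD. All ZXD libraries lay below all CON and HFD libraries, and CON and HFD overlapped. Its means were 8.53 ± 1.03, 9.67 ± 0.753 and 6.10 ± 0.433 CPM (SD, n = 5).

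In ZXD over CON, Ankrd54 fell, at -0.48 ± 0.13 (edgeR adjusted p = 0.0116), and on library totals it read -0.05 (adjusted p = 0.759). HFD over CON was 0.18 ± 0.13 (edgeR adjusted p = 0.316), and ZXD over HFD was -0.66 ± 0.13. Its promoter is shown because it is the member that went the other way and because CCAAT, in capitals below as its reverse complement ATTGG, occurs in it 3 times. The window is chr7:112508079-112508378 on the minus strand of GRCr8.
Ankrd54: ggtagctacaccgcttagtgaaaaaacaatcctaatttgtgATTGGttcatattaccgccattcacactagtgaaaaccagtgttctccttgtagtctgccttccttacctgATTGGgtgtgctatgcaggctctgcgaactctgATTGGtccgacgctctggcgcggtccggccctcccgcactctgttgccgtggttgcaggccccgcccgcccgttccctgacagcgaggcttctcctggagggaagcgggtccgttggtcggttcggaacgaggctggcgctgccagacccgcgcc
At least 3 CCAAT matches on either strand occur in 3.02% of rat promoters of this length. Some match is found in 37.5% of them and in 4 of the 9 members searched, Akap13, Alms1, Ankrd54 and Gda. The TATA box letters TATAAA occur in 14.2% of rat promoters, and the E-box letters CACGTG in 6.42%. Both were absent from all 9 windows on either strand, as were the cyclic AMP response element TGACGTCA (1.83% of promoters), a direct repeat spaced by 4 bases (0.00598%) and the sterol response element (0.125%). Promoters were matched by symbol, and Asap1, though a RefSeq gene, had no promoter entry.

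Dlat encodes the E2 subunit of the pyruvate dehydrogenase complex, which hands acetyl groups from pyruvate to coenzyme A. It lies on the minus strand at chr8:50507581-50552393, with a length of 2423 bases. Dlat measured 18.4, 18.8, 17.5, 19.1 and 16.3 CPM in CON libraries 1 to 5, 18.5, 10.7, 13.1, 14.7 and 11.6 CPM in HFD, and 19.6, 21.0, 24.5, 19.5 and 20.3 CPM in ZXD. ZXD lay above all CON and HFD libraries, by a narrow margin over CON, and 4 of 5 HFD libraries lay below the CON range. Means were 18.01 ± 1.14, 13.7 ± 3.09 and 21.0 ± 2.06 CPM (SD, n = 5).

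ZXD over HFD for Dlat was 0.61 ± 0.14, HFD over CON -0.39 ± 0.14 (edgeR adjusted p = 0.0568) and ZXD over CON 0.22 ± 0.14 (edgeR adjusted p = 0.236). On library totals HFD over CON read 0.03 (adjusted p = 0.873). Without HFD library 1, the HFD over CON difference was called at -0.53 (adjusted p = 0.00976) and ZXD over HFD read 0.74. Dlat's position overlaps LOC100151767 on the same strand, at 26.1 CPM, and Pih1d2 on the opposite strand. Whether the counting used strand is not given in the sources used here, so reads could be shared and Dlat's values are uncertain. No other member overlaps another gene of the table.

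Gda encodes guanine deaminase, which turns guanine into xanthine on the way to uric acid. It lies on the minus strand at chr1:216146233-216221719 and has the shortest length of the 10, 1460 bases. Gda measured 81.5, 48.6, 54.7, 62.2 and 58.3 CPM in CON libraries 1 to 5, 80.7, 40.3, 27.3, 29.4 and 24.7 CPM in HFD, and 56.3, 73.9, 128, 130.2 and 135 CPM in ZXD. Among the 10 genes it varied most relative to its mean in HFD and in ZXD, though not in CON: HFD library 1 stood far above the other 4, and ZXD libraries 1 and 2 stood inside the CON range while the other 3 were above it. Means were 61.1 ± 12.46, 40.5 ± 23.3 and 105 ± 36.7 CPM (SD, n = 5).

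No Gda comparison with CON passed the test: HFD over CON was -0.59 ± 0.32 (edgeR adjusted p = 0.197) and ZXD over CON 0.78 ± 0.32 (edgeR adjusted p = 0.0773). ZXD over HFD was 1.37 ± 0.33. Without HFD library 1, HFD over CON was called at -1.01 (adjusted p = 0.0160) and ZXD over HFD read 1.78, which then stood at place 1 in the order of p.

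**Figure D2:**
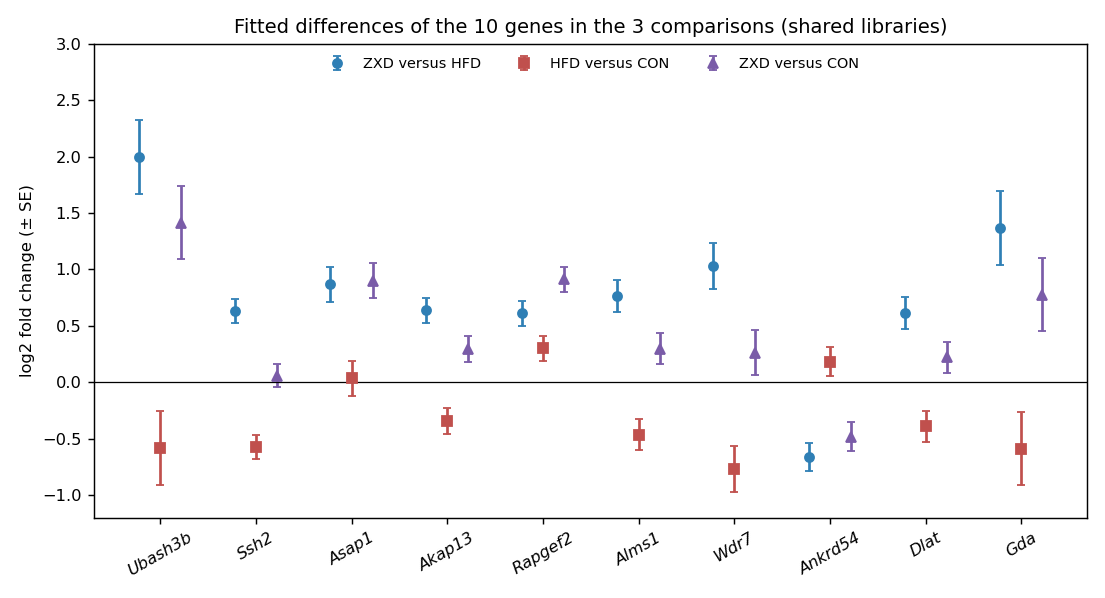
Log2 fold change of each of the 10 genes (vertical axis, with SE bars) in ZXD over HFD, HFD over CON and ZXD over CON. In ZXD over CON, Ubash3b, Asap1 and Rapgef2 stand at 1.42, 0.90 and 0.91, while Ssh2, Dlat and Wdr7 stand at 0.06, 0.22 and 0.26, and in HFD over CON these last 3 stand at -0.58, -0.39 and -0.77.

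Set against the CON range, ZXD left it in every library for 5 members: Ubash3b, Asap1, Rapgef2 and Dlat above and Ankrd54 below. Of all tested genes, 19.6% had all 5 ZXD libraries outside the CON range. For Alms1, 4 ZXD libraries were above the range, for Akap13 and Gda 3, and for Ssh2 1. Wdr7 was the 1 member with all 5 ZXD libraries inside, beside 12% of all genes. Without overlap between whole groups, 4 members were higher and 1 lower in ZXD than in CON, where 18% of genes did not overlap (8.2% higher, 9.79% lower).

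HFD left the CON range in every library for 3 members, Ssh2, Akap13 and Alms1, all below, beside 17.0% of all genes outside in all 5 libraries and 15% that did not overlap (6.59% higher, 8.46% lower). Dlat and Gda were below it in 4 HFD libraries, Wdr7 in 3 and Ubash3b in 1. Rapgef2 and Ankrd54 were above it in 2. Asap1 stayed inside in all 5, as did 10.3% of genes. On library totals, 8 members had every ZXD library outside the CON range, beside 32.6% of genes. Ankrd54 then lay inside in all 5 and Gda had 1 library inside.

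Between genes, levels are compared per length, in the deposited FPKM of the CON libraries. Gda was highest at 34.4 ± 7.05, followed by Akap13 at 8.41 ± 1.34 and Dlat at 6.10 ± 0.248 (SD, n = 5). Gda and Akap13 were each separate from the next gene in the order. Asap1 (4.85 ± 1.06), Ssh2 (4.74 ± 0.401), Ankrd54 (3.68 ± 0.427), Rapgef2 (3.46 ± 0.550) and Wdr7 (2.37 ± 0.590) formed a run in which neighbours overlapped, and Dlat overlapped Asap1. Alms1 at 1.40 ± 0.104 was below all Wdr7 libraries, and Ubash3b at 0.973 ± 0.446 was the lowest mean, overlapping Alms1.

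The members were long. Their median gene length was 3894 bases, beside 2312 over all genes tested, and 8 of 10 were above that median. Their median span on the chromosome, introns included, was 110121 bases beside 20610, with 9 of 10 above it and 6 over 100000 bases. The 6 were Ubash3b, Ssh2, Asap1, Akap13, Rapgef2 and Wdr7, and Ankrd54 was the 1 member under 20000.

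All tested genes differed by span in the same comparison. The median ZXD over HFD log2 fold change was -0.08 for 6445 genes under 20000 bases, 0.09 for 5296 genes of 20000 to 100000 bases and 0.25 for 1422 genes over 100000 bases, and 39.9%, 60.5% and 76.0% of them were positive. At an unadjusted p under 0.05, 4.11%, 12.9% and 24.3% were higher in ZXD. By gene length the medians were -0.07 under 2000 bases and 0.16 over 5000 bases. The members' own values in this comparison chose them, so their distance from their span class is not read.

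The span classes were also scored per library, as the mean of log2 CPM centred on each gene. Genes over 100000 bases scored 0.115, -0.121, -0.224, 0.068 and -0.229 in CON libraries 1 to 5, -0.023, -0.019, -0.347, -0.020 and -0.136 in HFD, and 0.239, 0.164, 0.121, 0.220 and 0.192 in ZXD. All ZXD libraries were above all CON and HFD libraries, with a narrower spread than in either. The part of span in the members' differences was not tested.

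**Figure D3:**
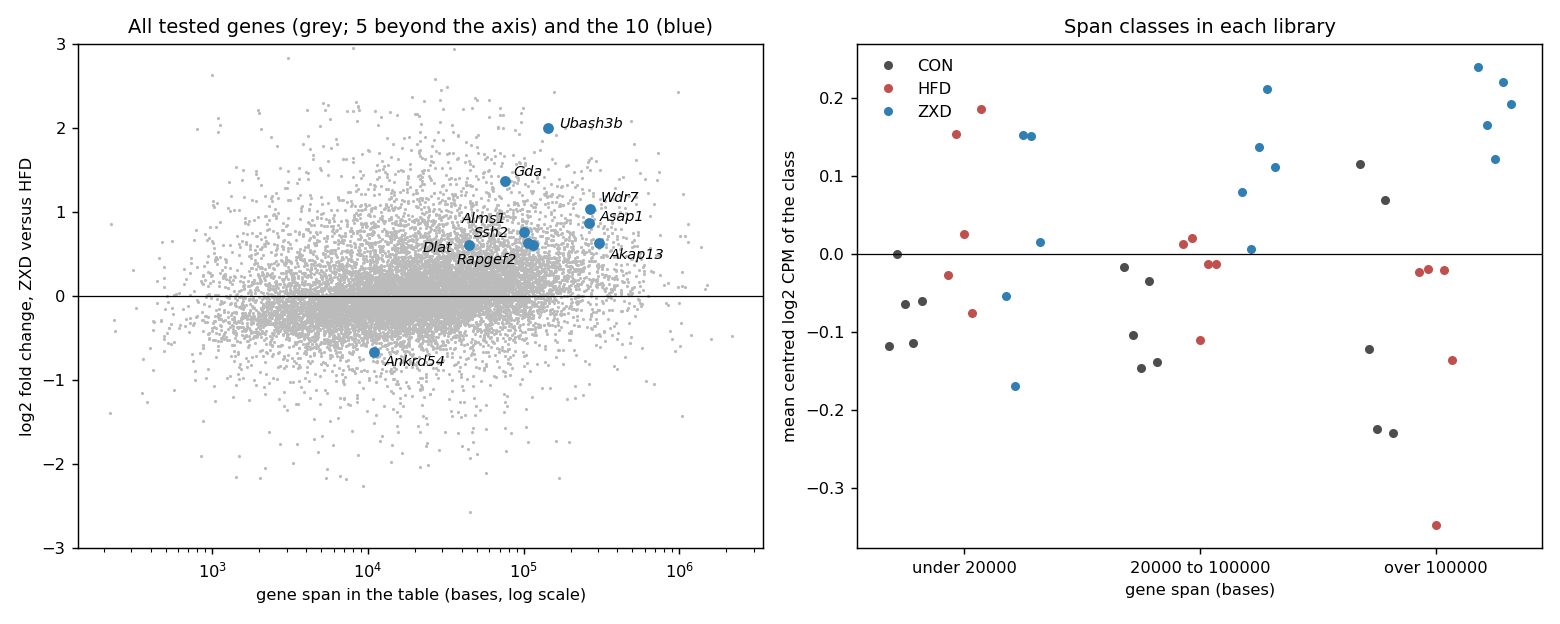
Left, log2 fold change in ZXD over HFD against gene span in bases (log axis) for all tested genes (grey) and the 10 members (blue). Right, mean centred log2 CPM of genes under 20000, of 20000 to 100000 and over 100000 bases in each library; in the longest class the ZXD points (0.121 to 0.239) lie above all CON and HFD points.

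The relatives and partners of the members other than Ankrd54, for which no list was made, were taken from lists of genes that share a pathway, with the members left out. In ZXD over HFD the edgeR test called 0 genes in each of the 10 lists, and DESeq2 called 1 to 4 a list with the members counted in. Between 1 and 9 genes of a list had an unadjusted p under 0.05, with the highest count among the 23 centrosome and ciliary base genes beside Alms1, whose fold changes had a median near 0. List medians for ZXD over HFD ran from -0.10 in 20 genes of purine breakdown and salvage, Gda's list, to 0.76 in 11 genes of UBASH3, CBL and tyrosine kinases. The 15 A-kinase anchoring and protein kinase A genes beside Akap13 had a median of 0.49, and 6 had an unadjusted p under 0.05.

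Beside Ubash3b, 6 of the 11 UBASH3, CBL and tyrosine kinase genes rose in HFD over CON and 10 rose in ZXD over CON, with 0 lower in both. The HFD count was 2 when CON 3, CON 5, HFD 2 or HFD 5 was left out and 3 without CON 2, CON 4, HFD 3 or ZXD 3. Its closest relative Ubash3a, a gene of T cells, rose from 0.123 ± 0.0783 CPM in CON to 0.864 ± 0.457 in HFD (log2 fold change 2.71 ± 0.90, edgeR adjusted p = 0.0443), and ZXD held 1.96 ± 2.02 CPM. The CON libraries held 0 to 0.178 CPM of Ubash3a, below the level of 3 counts, so the size of this rise is uncertain. Lck, a T cell kinase, rose by 2.12 ± 0.51 in HFD (edgeR adjusted p = 0.0101), and Cblc, a ubiquitin ligase gene, by 3.13 ± 0.63 (edgeR adjusted p = 0.00394). Cblc also started near the floor, at 0.182 ± 0.120 CPM in CON beside 1.65 ± 1.45 in HFD. The summed level of 19 T, B and NK cell markers, Lck among them, lay between 15.4 and 40.3 CPM in CON, 35.6 and 111 in HFD, and 46.2 and 202 in ZXD, with Gzmb at 0 in all libraries. Its part in these rises was not tested.

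Beside Ssh2, the 12 other genes of the slingshot and cofilin list had 3 higher and 1 lower in HFD over CON, and 5 higher and 3 lower in ZXD over CON. Without CON 5 or HFD 2 the count of 3 was 0. Ssh1, the sister phosphatase, moved opposite to Ssh2 in HFD: it rose from 6.30 ± 1.45 to 10.6 ± 2.15 CPM (log2 fold change 0.75 ± 0.21, edgeR adjusted p = 0.0198), and rose in ZXD over CON by 1.11 ± 0.21 (edgeR adjusted p = 0.00187). Ssh3 did not pass the test, at 15.9 CPM in CON and 20.5 in HFD. Pdxp, a phosphatase that also acts on cofilin, fell in HFD from 14.03 to 1.25 CPM, a log2 fold change of -3.48 ± 0.58 (edgeR adjusted p = 0.00109).

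Around Asap1, 1 of 24 ARF GTPase and GAP genes rose and 1 fell in HFD over CON, and 5 rose and 2 fell in ZXD over CON. The 5 became 2 without ZXD 4 and 3 without CON 2, CON 3, CON 5 or ZXD 3. The 2 that fell became 1 in 8 of the 15 fits that leave out 1 library, all but those without CON 1, ZXD 2 or any HFD library. In HFD the count of 1 higher became 2 without CON 1, ZXD 2 or ZXD 4, and that of 1 lower became 2 without HFD 2. Its relatives Asap2 and Asap3 passed in neither comparison with CON. Asap3 read 17.7 ± 5.90 CPM in CON, 16.9 ± 3.49 in HFD and 11.9 ± 3.03 in ZXD. The 2 ARF genes called in HFD over CON were the ARF GAPs Adap2, which fell by 1.01 on the log2 scale (edgeR adjusted p = 0.000714), and Adap1, which rose by 3.12 (edgeR adjusted p = 0.0172). Adap1 stood near the level of 3 counts in CON, at 0.265 ± 0.143 CPM, and at 2.40 ± 1.72 CPM in HFD.

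For Akap13, 2 of 19 RhoA exchange factor and kinase genes rose and 1 fell in HFD over CON, and 4 rose and 0 fell in ZXD over CON. With 1 library left out the HFD counts ran from 1 to 3 higher and from 0 to 4 lower, the 4 without HFD 1, and in ZXD from 0 to 2 fell, the 2 without ZXD 2. Of the 15 A-kinase genes edgeR called 0 in HFD over CON, where 3 had an unadjusted p under 0.05, and 2 rose in ZXD over CON, 4 without CON 1 or HFD 1. The exchange factor genes Arhgef11 and Arhgef12 did not pass: Arhgef12 read 158 ± 25.2, 115 ± 33.4 and 147 ± 22.4 CPM in CON, HFD and ZXD. Rhoc, a GTPase related to RhoA, rose in HFD by 2.18 ± 0.34 (edgeR adjusted p = 0.000787), and Arhgap35, a GAP for RhoA, fell by 0.86 (SE 0.24, edgeR adjusted p = 0.0201).

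Beside Rapgef2, 5 of 18 RAP pathway genes rose and 1 fell in HFD over CON, and 9 rose and 1 fell in ZXD over CON. Leaving out CON 2, CON 5 or HFD 2 took the 5 to 2, leaving out CON 1, CON 3, CON 4 or HFD 5 took it to 3, and leaving out ZXD 4 took the 9 to 5. Without HFD 1, 2 fell in HFD. Rapgef6, the closest relative of Rapgef2, read 13.6 ± 3.67, 12.2 ± 3.16 and 20.4 ± 3.51 CPM and rose in ZXD over CON by 0.58 ± 0.21 (edgeR adjusted p = 0.0423). Rapgef1 passed in neither, at 71.8, 68.6 and 86.0 CPM. Of the cyclic AMP-driven exchange factors, Rapgef4 fell in HFD by 1.04 on the log2 scale (edgeR adjusted p = 0.00536) and Rapgef3 rose by 2.70 (edgeR adjusted p = 0.00607).

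Beside Alms1, 3 of the 23 centrosome and ciliary base genes rose and 2 fell in HFD over CON, and 3 rose and 1 fell in ZXD over CON. The 3 in HFD became 1 without CON 3 or HFD 5 and 5 without HFD 1, and the 3 in ZXD became 6 without CON 1. The 2 that fell in HFD became 1 in 11 of the 15 fits that leave out 1 library, and stayed at 2 without HFD 1, ZXD 2, ZXD 3 or ZXD 4. Bbs7 rose in HFD by 1.39 ± 0.27 (edgeR adjusted p = 0.00321) and Mkks fell by 0.50 (SE 0.12, edgeR adjusted p = 0.0132), both genes of the Bardet-Biedl syndrome group. Beside Wdr7, 1 of 19 proton pump genes rose and 3 fell in HFD, and 3 rose and 3 fell in ZXD over CON, with 0 to 1 higher and 2 to 4 lower in HFD when 1 library was left out. The count of 1 higher held without CON 4, HFD 1, HFD 4, ZXD 1, ZXD 2, ZXD 3 or ZXD 4 and was 0 otherwise. Dmxl2, its partner in rabconnectin-3, fell as Wdr7 did, from 40.6 ± 11.7 to 20.9 ± 2.98 CPM (-0.96 ± 0.21, edgeR adjusted p = 0.00645). In ZXD, Dmxl2 stayed lower than in CON at 25.2 ± 7.97 CPM (-0.69 ± 0.21, edgeR adjusted p = 0.0217), where Wdr7 lay inside the CON range. Dmxl1 read 46.3, 39.0 and 58.0 CPM and passed in neither. The pump subunit Atp6v0d1 fell in HFD by 0.47 on the log2 scale (edgeR adjusted p = 0.00772).

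Beside Dlat, 0 of 21 pyruvate dehydrogenase genes rose and 7 fell in HFD over CON, and 0 rose and 8 fell in ZXD over CON. On library totals the counts were 1 higher and 2 lower, and 4 higher and 2 lower. The 7 became 4 without CON 3, CON 5 or HFD 5. Both E1 subunit genes fell in HFD: Pdha1 from 96.1 ± 12.6 to 59.9 ± 21.0 CPM (log2 fold change -0.68 ± 0.20, edgeR adjusted p = 0.0284) and Pdhb from 88.3 ± 15.8 to 54.9 ± 4.75 CPM (-0.69 ± 0.14, edgeR adjusted p = 0.00344). Pdhb stayed low in ZXD at 55.4 ± 7.22 CPM (-0.67 ± 0.14 against CON, edgeR adjusted p = 0.00301). On library totals this difference read -0.26 (edgeR adjusted p = 0.0896). Dlat was above the CON range in all 5 ZXD libraries, by a narrow margin. Its own difference from CON was not called, at 0.22 ± 0.14 (edgeR adjusted p = 0.236). Pdha1 stood between its HFD and CON means in ZXD, at 77.6 ± 10.9 CPM (-0.31 ± 0.20 against CON, edgeR adjusted p = 0.253).

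Other pyruvate genes moved in HFD too. Pdp2, the phosphatase that turns the complex on, fell from 24.9 ± 12.9 to 2.17 ± 0.596 CPM, a log2 fold change of -3.52 ± 0.44 (edgeR adjusted p = 0.000136), and stood at 2.80 ± 1.10 CPM in ZXD. Pc, pyruvate carboxylase, fell, at -1.09 ± 0.19 (edgeR adjusted p = 0.00123). Dld, Pdhx and the kinase gene Pdk4 passed in neither comparison with CON. In CON, HFD and ZXD, Dld read 83.4, 65.8 and 70.0 CPM and Pdhx 15.4, 12.6 and 18.1 CPM.

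Beside Gda, 3 of 20 purine genes rose and 1 fell in HFD over CON, and 4 rose and 3 fell in ZXD over CON. With 1 library left out, 2 to 5 rose in HFD (5 without HFD 4) and 2 to 5 in ZXD (2 without CON 5). The count of 1 lower in HFD was 2 without CON 1, and 0 when HFD 2, HFD 5, CON 2, CON 3 or CON 4 was left out. The 3 lower in ZXD became 1 in 7 of the 15 such fits, those without CON 2, CON 3, CON 5, HFD 1, HFD 5, ZXD 3 or ZXD 5. Aprt, which salvages adenine, rose in HFD by 0.69 ± 0.17 (edgeR adjusted p = 0.0141) and Nt5c3b, a nucleotidase gene, by 0.99 ± 0.26 (edgeR adjusted p = 0.0172). Xdh, which acts on the xanthine that Gda's product supplies, read 242 ± 56.7, 171 ± 42.7 and 279 ± 83.8 CPM and passed in neither, nor did Pnp or Uox. On library totals, calls against CON shifted upward in each list: for example 17 of the 24 ARF genes and 16 of the 23 centrosome genes were then higher in HFD. Among the called relatives named in these paragraphs none changed sign, while Mkks, Atp6v0d1, Pdha1, Pdhb and Arhgap35 were no longer called in HFD over CON and Dmxl2 and Pdhb no longer in ZXD over CON.

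Genes with the most similar pattern were ranked by the root mean square difference of standardised log2 CPM over the 15 libraries, where a typical gene lay near 1.40 from a member. The pattern holds the ZXD and HFD values that chose the members. Nearness to other genes of low p, and between members, is therefore partly fixed by the choice, and nothing is read from it. Ubash3b was nearest to Lama4 (0.417), a vessel laminin gene, and Arrb1 (0.445), and Asap1 to Dock11 (0.327) and Ckap5 (0.339). Rapgef2 was nearest to Tlr5 (0.330) and Zfyve16 (0.371), Wdr7 to Pds5a (0.323) and Nr2c2 (0.346), and Ssh2 to Pikfyve (0.440) and Gatad2b (0.485). Alms1 was nearest to Slc26a2 (0.422) and Reln (0.465), Gda to Itgb3 (0.419) and Cyld (0.422), and Dlat to LOC691387 (0.439) and Scarb2 (0.491). The nearest genes lay farther off for Akap13, with LOC100910106 at 0.586 and Fam76a at 0.597. Among members the nearest to each other were Asap1 and Rapgef2 (0.434), and Ankrd54's nearest member, Ssh2, lay at 1.78.

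Ankrd54 was nearest to Tmub2 (0.443) and Polr2f (0.584). Polr2f, which encodes an RNA polymerase subunit, lies 85132 bases from Ankrd54 on the opposite strand and stood at place 11 in the order of p. Its level was 6.17, 6.26 and 3.41 CPM in CON, HFD and ZXD, with a ZXD over HFD log2 fold change of -0.88. The tested genes between them, Eif3l and Micall1, read 0.04 and 0.22. Gcat, H1f0 and Triobp, on the other side of Ankrd54, read 0.09, 0.15 and -0.03. These genes were singled out after their values were seen. Near Asap1, Fam49b lies 28128 bases away and read 0.85 in ZXD over HFD, the direction of Asap1. Other neighbours went against their member. Coro6, 6511 bases from Ssh2, read -1.32, and Txnl1, 22248 bases from Wdr7, read -0.24. Near Dlat, Timm8b at 3431 bases read -0.44 and LOC689959 at 76529 bases read -0.49. Whether neighbours moved together with members was not tested.

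Markers of other liver cells were summed beside these results. In bulk tissue, fewer cells of a type and less RNA per cell cannot be told apart. The 15 endothelial markers summed to 547, 365, 237, 662 and 191 CPM in CON libraries 1 to 5, 557, 410, 181, 482 and 333 CPM in HFD, and 901, 864, 772, 706 and 839 CPM in ZXD. All ZXD libraries were above all CON and HFD libraries, as was also so for Ubash3b, Asap1, Rapgef2 and Dlat. Of all genes tested, 2.14% had every ZXD library above every HFD library, and 8.2% had every ZXD library above every CON library. Because ZXD over HFD chose the members, nothing is read from this match. Lyve1, a receptor of sinusoidal endothelium, read 48.7 ± 29.3, 41.3 ± 20.3 and 122 ± 12.9 CPM, and Cdh5, the endothelial cadherin gene, read 12.8 ± 9.20, 13.7 ± 4.31 and 36.3 ± 6.73 CPM. Lyve1 and Cdh5 had the lowest unadjusted edgeR p of the 15 in ZXD over HFD, 0.00255 and 0.00312. Clec4g, also in the list, read 10.6 ± 4.20, 16.4 ± 5.75 and 16.9 ± 9.62 CPM, with a ZXD over HFD log2 fold change of 0.05.

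All 15 endothelial markers had positive ZXD over HFD log2 fold changes, with a median of 0.95, yet the edgeR test called 0 of them and 9 had an unadjusted p under 0.05. DESeq2 called 2. In ZXD over CON, 7 of the 15 rose, a count that was 3 without CON 2, 2 without CON 3 and 4 without CON 5. Their part in the members' differences was not tested.

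Macrophage and Kupffer cell markers (20 genes) had sums between 389 and 1104 CPM in CON, 683 and 4339 in HFD, and 1050 and 8198 in ZXD, with 0 called in ZXD over HFD by edgeR, 7 at an unadjusted p under 0.05, and 17 higher in ZXD over CON (11 without ZXD 4). Stellate cell markers lay between 504.02 and 810 CPM in CON, 340 and 837 in HFD, and 553 and 853 in ZXD. Cholangiocyte markers ran from 134 to 143, 185 to 263 and 170 to 260 CPM, and platelet and red cell markers from 81.9 to 396, 135 to 429 and 117 to 719 CPM. In each of these 4 lists ZXD overlapped HFD. Their part in the members' differences was not tested.

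**Figure D4:**
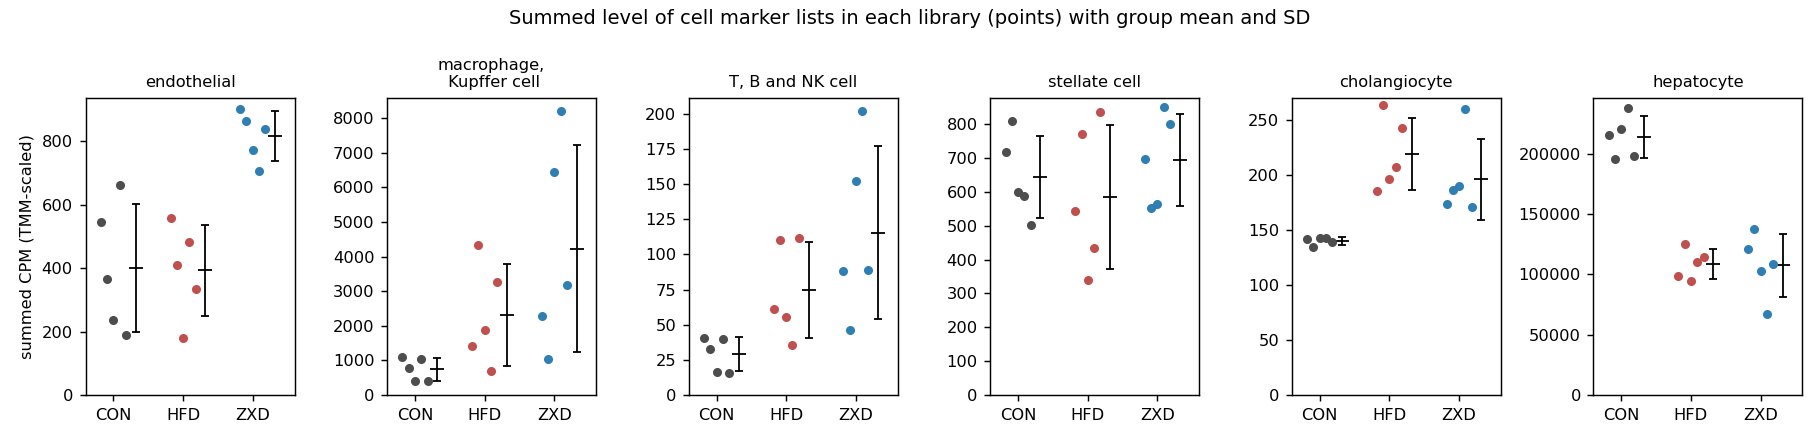
Summed CPM of 6 lists of cell markers (vertical axes, from 0) in each CON, HFD and ZXD library (points), with the group mean and SD. The ZXD endothelial sums (706 to 901) lie above all HFD (181 to 557) and CON (191 to 662) sums, while in the macrophage panel the groups overlap.

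The members' directions were steadier than their places in the order. In ZXD over HFD all 10 kept their direction in all 23 alternative fits, with Ubash3b from 1.82 to 2.15, Asap1 from 0.78 to 0.93, Rapgef2 from 0.57 to 0.65 and Gda from 1.23 to 1.78. Since non-overlapping groups fix most of these directions, that is no measure of their reliability. Between 3 and 8 of the 10 members were among the 10 lowest p. The lowest number, 3, came from leaving out HFD 1 or ZXD 2. Ssh2 ranged from place 1 to 13, Ubash3b from 1 to 19, Ankrd54 from 6 to 78, Dlat from 5 to 202 and Gda from 1 to 267. Against CON, Ubash3b, Asap1 and Rapgef2 were called in ZXD in 23 of 23 alternatives and Ankrd54 in 22.

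**Figure D5:**
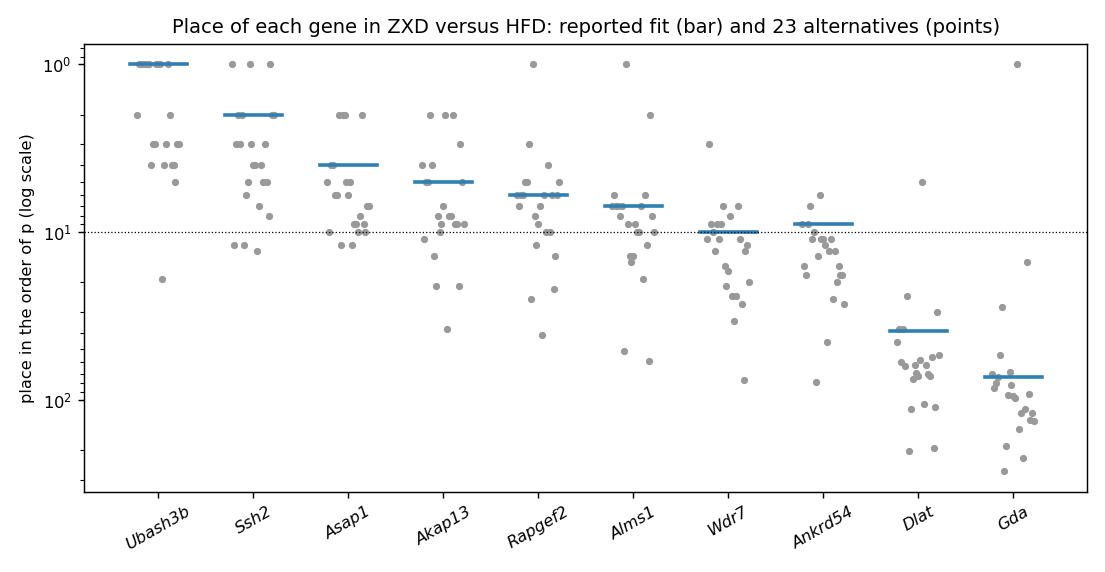
Place of each gene in the order of p for ZXD over HFD (log axis, place 1 at the top) in the reported fit (bar) and in the 23 alternatives (points). The dotted line marks place 10; Ubash3b and Ssh2 stay within the first 19 and 13 places, and Gda runs from 1 to 267.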

How the data were processed

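Rat liver RNA was analysed in 15 libraries from 1 deposited table. Per the file headers it holds, for each library, read counts and FPKM, with gene length and position. The authors' FPKM equalled count divided by length and library total in 100% of values within 0.01%, so tests used the deposited counts. In the submitters' processing notes edgeR is named, its role not stated. The aligner, counter, build and annotation behind them: not given in the sources used here.

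Counts were filtered with filterByExpr (minimum count 10, total 15), TMM-scaled and fitted with edgeR 4.0.16 in R 4.3.3 (robust glmQLFit, group as the only term, 12 residual degrees of freedom), tested with glmQLFTest and adjusted by Benjamini-Hochberg over 13163 genes, with calls under 0.05. Alternatives used DESeq2 1.42.0, limma 3.58.1, other scalings and filters, the 2 groups compared alone and each library left out. The fit was tested on simulated counts. Since nothing ties libraries to single rats, the p-values reflect no more than the spread among these 15 samples, which may be technical. Intervals of counting cover counting error alone.

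Members and gene lists were chosen with earlier results of these data known. Genes named are the members, stated relatives, up to 2 called genes per pathway list with the lowest adjusted p in HFD versus CON, the 3 genes after the last member, and the 2 genes nearest in pattern to each member. Symbols were matched to RefSeq of assembly GRCr8 (16904 of 21576).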

Additional observations from a re-analysis of the deposited data

Results flagged for a closer look

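In 4 of the 30 sets of 5 libraries examined (10 genes in 3 groups), 1 library lay far from the other 4, with a gap to its neighbour above 0.71 of the group's whole range. Chance alone marks about 1 set in 20. CON library 5 held 152 CPM of Akap13, where the other CON libraries lay between 115 and 124. CON library 1 held 33.8 CPM of Rapgef2, beside 23.1 to 25.7 in the others. ZXD library 3 held 24.5 CPM of Dlat, beside 19.5 to 21.0. HFD library 1 held 80.7 CPM of Gda, beside 24.7 to 40.3, and HFD library 1 also held the highest HFD level of Dlat, 18.5 CPM.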

How the results depend on the processing

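Over 23 alternatives, 88 values of the main results stayed on their side and 10 moved. Among the other values followed, 1666 stayed, 207 moved, 32 became stronger, 26 became weaker and 1 reversed. The ZXD versus HFD count of 0 became 342 by DESeq2 (212 higher, 130 lower) and 0 to 7 with 1 library left out. The 7, without HFD 1, were Gda, Prelp, Rprm, Dlc1_1, Dlat, Mbnl1 and Itgb3 (lowest adjusted p = 0.0496), and without HFD 3 Mmp15 alone was called. Members called in HFD versus CON (4) numbered 2 with only the groups compared, 6 by DESeq2 and 2 to 5 with 1 library left out, 2 without CON 2, CON 4, CON 5 or HFD 3. Over all genes tested, 2758 were called in the main fit, 2978 with only the groups compared and 3711 by DESeq2. With 1 library left out, 1697 to 3235 genes were called. On library totals 3 members were called, now Asap1, Rapgef2 and Ankrd54 higher, beside 5895 genes in all. There the HFD over CON difference of Akap13 reversed to 0.0709. Members called in ZXD versus CON (4, beside 4299 genes in all) became 9 on library totals, all higher, beside 6674 genes in all. With 1 library left out the members called numbered 4 to 5, beside 3037 to 4680 genes in all. Members with every ZXD library outside the CON range (5) became 8 on library totals and 5 to 6 with 1 library left out. The median ZXD over HFD difference of genes over 5000 bases (0.16) ran from 0.10 to 0.19 with 1 library left out. The cause was not tested.

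Replicate numbers did not pair the samples: 4 of 15 same-numbered pairs correlated above 0.1, from -0.55 to 0.26. With the replicate number as a block, 0 genes were called in ZXD versus HFD (lowest edgeR adjusted p = 0.0985), 3 members in HFD versus CON and 4 in ZXD versus CON. Counting error weighs most on Ubash3b, at 13 to 147 reads.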
